A study of Arabidopsis thaliana with 12 samples.

Results

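Polycomb repressive complex 2 (PRC2) and its partners and opponents were followed through 10 genes of Arabidopsis thaliana, chosen by locus identifier for their known roles, with no threshold on their values. They are 10 of the 32678 identifiers in the deposited count and FPKM tables. The members are the methyltransferase genes CLF (AT2G23380), SWN (AT4G02020) and MEA (AT1G02580), the VEFS zinc finger subunit genes EMF2 (AT5G51230) and VRN2 (AT4G16845), and the WD40 subunit genes FIE (AT3G20740) and MSI1 (AT5G58230). LHP1 (AT5G17690) encodes a reader of the mark, VRN5 (AT3G24440) a PHD finger protein that joins the complex, and REF6 (AT3G48430) a demethylase that removes the mark. All 10 were found in both tables and all 10 passed the filter on low counts, MEA only through the clf libraries.

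As background, PRC2 places trimethyl groups on lysine 27 of histone H3, a mark of genes held silent through development. Each complex holds 1 methyltransferase, 1 VEFS subunit, FIE and MSI1. CLF and SWN act in the vegetative plant with EMF2 or VRN2, whereas MEA belongs to the complex of the central cell and endosperm. VRN5 assists the VRN2 form during vernalization, the response to long cold.

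The question of the series is the regulation of iron homeostasis genes by this mark in shoots. Plants of clf, a line mutated in CLF, were compared with Col wild type. No source used here names the clf allele, so what remains of the CLF transcript could not be placed against the lesion. Every group spent 12 days on B5 medium and 3 more days on its test medium, kept at 22 °C in days of 16 h light and 8 h dark. The groups were clf on deficient iron, clf on sufficient iron, wild type on deficient iron and wild type on sufficient iron, with 3 libraries of TruSeq stranded mRNA each. Whether replicates are separate cultures is not said, so a p-value reflects the spread of these libraries alone, part of which may be technical.

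Library totals ran from 16092041 to 29400813 counts, and each of the 6 deficient libraries had a higher total than any of the 6 sufficient libraries. The labels name the tissue both shoot and root. The summed level of 8 leaf marker genes was 52796 to 64171 CPM (counts scaled to library size with TMM factors) in clf on deficient iron and 76621 to 86807 CPM in clf on sufficient iron. In wild type it was 60583 to 65205 CPM on deficient and 96144 to 109076 CPM on sufficient iron. The summed level of 10 root marker genes stayed between 1.65 and 12.1 CPM over the 12 libraries, with 0 to 4 of the 10 at 0 counts in a library. In each group 1 library stood apart by its clock genes. It was replicate 3 in both clf groups, replicate 2 in iron-deficient wild type and replicate 3 in iron-sufficient wild type. TOC1, an evening gene of the clock, was at 30.2 to 59.6 CPM in those 4 libraries and at 9.44 to 13.01 CPM in the other 8. Results below that rest on them are given with and without them.

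MEA and SWN share the longest identical stretch found between the methyltransferase transcripts, which bears on whether reads of one could be counted for the other. The stretch was 30 bases, against 20 between CLF and SWN and 13 between CLF and MEA. It is shown in capitals within 90 coding bases (RefSeq, TAIR10.1, plus strand, joined across an intron), at chr4:890218-890378 for SWN and chr1:547621-547786 for MEA. Over the 90 bases the sequences differed at 17 positions.
SWN: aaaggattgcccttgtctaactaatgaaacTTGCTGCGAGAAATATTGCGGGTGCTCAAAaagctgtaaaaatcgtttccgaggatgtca
MEA: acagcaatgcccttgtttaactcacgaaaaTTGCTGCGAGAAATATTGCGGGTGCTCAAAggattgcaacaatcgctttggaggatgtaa
Each of the 6 wild-type libraries held 448 to 931 SWN counts and 0 to 3 MEA counts.

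The levels of the 10 genes were compared per length, on the FPKM scale (the authors' fragments per kilobase, scaled by library total). This scale carries no TMM factor, so group differences read on it include a shift of the median gene. On log2(FPKM + 0.1) that shift was 0.24 for deficient iron in wild type and 0.15 in clf. For clf over wild type it was 0.12 on sufficient iron and 0.05 on deficient iron. MSI1, a histone-binding WD40 protein, had the highest mean of the members in all 4 groups, and MEA the lowest. MSI1 averaged 23.3 ± 2.1 FPKM in clf on deficient iron and 16.6 ± 1.4 FPKM in clf on sufficient iron (SD, n = 3 each). In wild type MSI1 averaged 21.1 ± 1.9 FPKM on deficient and 15.3 ± 2.7 FPKM on sufficient iron (SD, n = 3 each). In wild type on sufficient iron, the baseline of the study, the order after MSI1 was REF6 at 10.98 ± 2.9, SWN at 10.02 ± 1.1, EMF2 at 10.005 ± 0.52, VRN5 at 8.87 ± 0.52, LHP1 at 7.01 ± 0.71, FIE at 4.76 ± 0.19, VRN2 at 4.46 ± 0.30, CLF at 4.31 ± 0.49 and MEA at 0.00904 ± 0.016 FPKM (SD, n = 3 each). The library values of MSI1, REF6, SWN and EMF2 overlapped with those of their neighbours in this order, as did those of FIE, VRN2 and CLF, whereas VRN5 lay just below EMF2 and wholly above LHP1, and LHP1 wholly above FIE. MEA lay wholly below all other members.

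**Figure D1:**
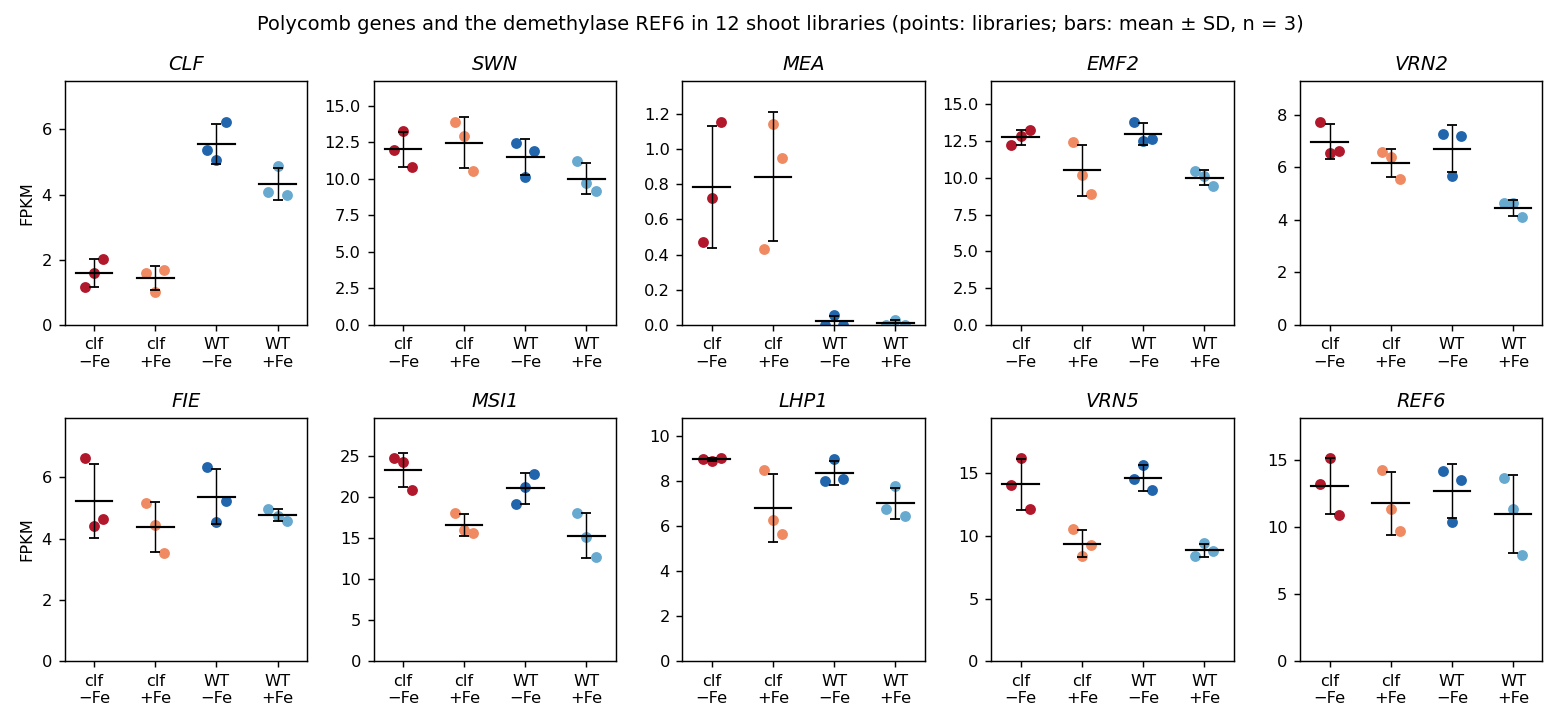
Level of each of the 10 genes in the 12 libraries (vertical axis in FPKM from 0, with its own range for each gene), with points for libraries, bars for the mean and SD of a group (n = 3), −Fe for deficient and +Fe for sufficient iron and WT for wild type. CLF sits lower and MEA higher in the 6 clf libraries than in the 6 wild-type libraries, while the values of the other 8 genes overlap between genotypes.

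CLF, the methyltransferase gene mutated in these plants, was lower in every clf library. CLF was at 1.15, 1.60 and 2.03 FPKM in clf on deficient iron, against 5.38, 5.05 and 6.24 FPKM in wild type on deficient iron. On sufficient iron CLF was at 1.58, 1.02 and 1.69 FPKM in clf, against 4.08, 4.88 and 3.98 FPKM in wild type. The groups did not overlap at either iron level. On the TMM-scaled counts the mean clf effect (over both iron levels) was a log2 fold change of -1.79 (SE 0.16, 95% interval -2.13 to -1.44, edgeR adjusted p = 6.8e-05), with lower values in 6 of 6 clf libraries. Without the 4 libraries that stand apart by their clock genes it was -1.99. The transcript was therefore measured at 0.290 times its wild-type level and was present in all clf libraries, with 627 counts over the 6. In bulk tissue, here and for the genes below, fewer cells with a transcript and less transcript per cell cannot be told apart. The genes on either side, AT2G23370 and AT2G23390, overlap CLF by 58 and 22 bases on the opposite strand, and whether the counting used strand is not stated. Their mean clf effects were log2 fold changes of -0.09 and -0.02 (edgeR adjusted p = 0.63 and 0.93).

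SWN, the other methyltransferase of the vegetative plant, did not pass the test in any comparison. It was at 12.0, 13.2 and 10.8 FPKM in clf on deficient iron and at 13.9, 12.96 and 10.6 FPKM in clf on sufficient iron. In wild type SWN was at 12.5, 10.1 and 11.9 FPKM on deficient iron and at 11.2, 9.68 and 9.15 FPKM on sufficient iron. The clf and wild-type values overlapped at both iron levels. The mean clf effect on SWN was a log2 fold change of 0.09 (SE 0.09, 95% interval -0.09 to 0.28, edgeR adjusted p = 0.52). Larger rises of the SWN transcript lie outside the interval only for this average over both iron levels. On sufficient iron alone the clf effect was 0.18, and its 95% interval reached further, from -0.08 to 0.45 (edgeR adjusted p = 0.46).

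MEA, the methyltransferase of the central cell and endosperm, was close to absent in wild-type libraries and present in all 6 clf libraries. It had 23, 47 and 78 counts in clf on deficient iron, against 0, 3 and 0 counts in wild type on deficient iron. On sufficient iron it had 18, 46 and 45 counts in clf, against 0, 1 and 0 counts in wild type. Scaled to library size, MEA was at 0.984 to 2.68 CPM in the clf libraries and at most 0.123 CPM in wild type. The 4 wild-type libraries without a count allow up to 0.103 to 0.210 CPM each (3 counts, counting error only). The clf libraries ranged from 0.433 to 1.16 FPKM and did not overlap with wild type.

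The ratio of pooled MEA levels, clf over wild type, was 45.7 on deficient iron (148 against 3 counts, exact 95% interval for counts 15.4 to 224). On sufficient iron it was 93.6 (109 against 1 count, 16.5 to 3732), and the 2 intervals overlap. Over both iron levels it was 57.9 (257 against 4 counts, 22.3 to 214). The edgeR adjusted p of MEA was 0.0074 on deficient iron, 0.0089 on sufficient iron and 0.00050 for the mean clf effect. Since MEA passed the filter on low counts only through the group where it is high, these values describe the fit and lend no support beyond the counts themselves. With no filter the adjusted p of the mean clf effect on MEA was 0.00038. Within clf, MEA did not differ by iron beyond counting error: the ratio of deficient to sufficient was 0.858 (0.666 to 1.11). That interval leaves out the spread between libraries. The edgeR fit, which includes it, gave a log2 fold change of -0.28 with a wider 95% interval, -1.68 to 1.12 (adjusted p = 0.91). The wild-type library with 3 MEA counts was 1 of the 4 that stand apart by their clock genes, and without those 4 libraries the mean clf effect on MEA had an edgeR adjusted p of 0.00040.

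MEA lies on chromosome 1, plus strand, at chr1:544733-549202, and no annotated gene overlaps it. The other genes around it were mostly near 0 counts in both genotypes. AT1G02575, 675 bases upstream, had 8 counts over the 6 clf libraries and 1 over the 6 wild-type libraries. AT1G02590 and AT1G02600, the next 2 genes downstream, had 0 counts in both genotypes. AT1G02610, 3816 bases downstream, had 2647 counts in clf and 1183 in wild type (log2 fold change 0.98, edgeR adjusted p = 0.00057 for the mean clf effect). CLPP5, a plastid protease subunit gene 4605 bases upstream, had 23647 counts in clf and 19833 in wild type, with a log2 fold change of 0.07 (edgeR adjusted p = 0.67).

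The 250 bases upstream of MEA are shown because it is the member whose transcript rose, at chr1:544483-544732 (RefSeq, TAIR10.1, plus strand, read 5′ to 3′).
MEA upstream: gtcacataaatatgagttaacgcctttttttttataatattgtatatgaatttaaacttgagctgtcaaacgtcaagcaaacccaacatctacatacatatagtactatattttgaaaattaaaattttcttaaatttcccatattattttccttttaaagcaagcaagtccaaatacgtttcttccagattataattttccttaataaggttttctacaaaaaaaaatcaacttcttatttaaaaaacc
Motifs linked to PRC2 recruitment in plants were searched on both strands. The telobox AAACCCTA is not in this window, and was in 4.49% of 27443 such windows of protein-coding genes. The GA repeat GAGAGAGA is not in it either, and was in 4.91% of them. Among the 10 members the telobox was in 0 windows and the GA repeat in 1, that of REF6.

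The 3 methyltransferase genes were also taken as one pool on the FPKM scale. The make-up of the pool differed between genotypes, which follows from the lower CLF and the higher MEA in clf. The summed level was 14.4 ± 1.0 FPKM in clf and 17.1 ± 1.6 FPKM in wild type on deficient iron (SD, n = 3 each). On sufficient iron it was 14.8 ± 1.4 FPKM in clf and 14.3 ± 1.1 FPKM in wild type (SD, n = 3 each). CLF held 11.1% ± 3.1 of the pool in clf and 32.6% ± 2.2 in wild type on deficient iron, and 9.82% ± 3.0 in clf and 30.1% ± 3.4 in wild type on sufficient iron (SD, n = 3 each). SWN held 83.4% ± 5.6 in clf and 67.3% ± 2.2 in wild type on deficient iron, and 84.4% ± 3.9 in clf and 69.8% ± 3.5 in wild type on sufficient iron (SD, n = 3 each). MEA held 5.46% ± 2.5 in clf and 0.121% ± 0.21 in wild type on deficient iron, and 5.83% ± 2.7 in clf and 0.0620% ± 0.11 in wild type on sufficient iron (SD, n = 3 each). These shares follow from the values of the 3 genes above and were not tested apart from them. The summed levels, unlike the shares, include the shift of the median gene on the FPKM scale. On log2(FPKM + 0.1) that gene was 0.12 higher in clf than in wild type on sufficient iron and 0.05 higher on deficient iron.

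**Figure D2:**
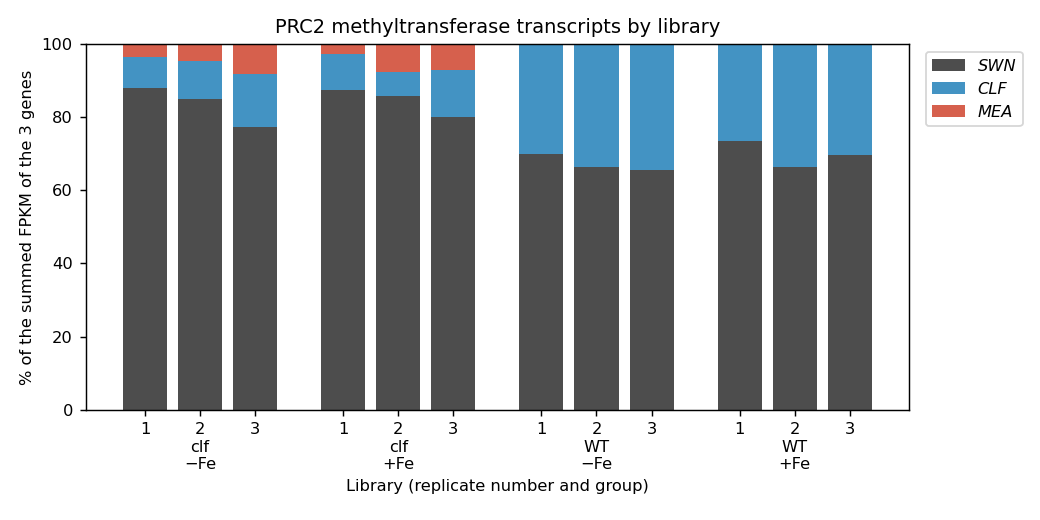
Share of CLF, SWN and MEA in their summed FPKM (percent of the pool) in each of the 12 libraries, clf groups to the left of wild type. In clf, SWN holds most of the pool, CLF 6.74% to 14.5% and MEA 2.72% to 8.27%, against 26.6% to 34.3% for CLF in wild type.

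EMF2 and VRN2 encode the VEFS subunits, of which a complex holds 1. EMF2 was the steadiest member, with a coefficient of variation of 8.23% in CPM over the 12 libraries. The median was 23.0% over the 18628 tested genes with counts in all libraries. EMF2 was at 27.6, 26.9 and 27.9 CPM in clf on deficient iron and at 28.97, 24.5 and 22.4 CPM in clf on sufficient iron. In wild type EMF2 was at 31.1, 28.8 and 27.5 CPM on deficient iron and at 26.7, 25.9 and 26.7 CPM on sufficient iron. EMF2 passed the edgeR test in 0 of the 7 comparisons.

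VRN2 was at 13.3, 10.5 and 10.7 CPM in clf on deficient iron and at 11.7, 11.7 and 10.6 CPM in clf on sufficient iron. In wild type VRN2 was at 12.5, 9.93 and 11.9 CPM on deficient iron and at 9.01, 9.07 and 8.88 CPM on sufficient iron. The 3 wild-type libraries on sufficient iron were the lowest of the 12. Against them VRN2 had a log2 fold change of 0.34 in clf on sufficient iron (SE 0.13, edgeR adjusted p = 0.20) and of 0.35 in wild type on deficient iron (SE 0.13, adjusted p = 0.13), and neither passed. These comparisons share the same 3 libraries. The FPKM ratio of EMF2 to VRN2 averaged 1.85 ± 0.23 in clf and 1.96 ± 0.23 in wild type on deficient iron, and 1.69 ± 0.17 in clf and 2.24 ± 0.059 in wild type on sufficient iron (SD, n = 3 each).

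FIE and MSI1 encode the WD40 subunits common to all forms of the complex. FIE was at 9.89, 6.16 and 6.50 CPM in clf on deficient iron and at 7.98, 7.11 and 5.86 CPM in clf on sufficient iron. In wild type FIE was at 9.43, 6.94 and 7.54 CPM on deficient iron and at 8.40, 8.05 and 8.60 CPM on sufficient iron. On sufficient iron the clf values lay below the wild-type values without overlap, with a log2 fold change of -0.26 (SE 0.21, edgeR adjusted p = 0.55). FIE overlaps AT3G20730 and the noncoding AT3G04025 on the opposite strand by 70 and 210 bases. MSI1 overlaps FHIT on the opposite strand by 132 bases, and the effect of these overlaps on the counts was not tested.

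MSI1 was at 38.5, 35.2 and 30.5 CPM in clf on deficient iron and at 29.2, 26.7 and 26.99 CPM in clf on sufficient iron. In wild type MSI1 was at 29.7, 33.7 and 34.4 CPM on deficient iron and at 31.9, 26.9 and 24.9 CPM on sufficient iron. In clf the iron groups did not overlap, and in wild type they did. The mean iron effect was a log2 fold change of 0.28 (SE 0.09, 95% interval 0.09 to 0.47), which missed the threshold in edgeR (adjusted p = 0.059) and passed it in DESeq2 (adjusted p = 0.036).

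LHP1 encodes the chromodomain protein that binds the mark. It was at 15.6, 14.4 and 14.7 CPM in clf on deficient iron and at 15.3, 11.6 and 10.9 CPM in clf on sufficient iron. In wild type LHP1 was at 13.9, 15.9 and 13.6 CPM on deficient iron and at 13.3, 15.4 and 14.1 CPM on sufficient iron. The groups overlapped in every comparison and LHP1 passed the edgeR test in none of the 7.

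REF6, the demethylase gene, did not pass in any comparison. REF6 was at 55.4, 59.0 and 42.9 CPM in clf on deficient iron and at 62.0, 50.6 and 45.2 CPM in clf on sufficient iron. In wild type REF6 was at 59.2, 44.5 and 54.7 CPM on deficient iron and at 64.8, 54.1 and 41.5 CPM on sufficient iron. The mean clf effect was a log2 fold change of -0.02 (95% interval -0.32 to 0.28, edgeR adjusted p = 0.95) and the mean iron effect one of -0.01 (95% interval -0.31 to 0.29, adjusted p = 0.97). The spread of REF6 went with the clock genes instead. In 4 of 4 groups its lowest library was the one highest in TOC1, at 0.750 times the mean of the other 2 in clf on deficient iron, 0.804 in clf on sufficient iron, 0.781 in wild type on deficient iron and 0.699 in wild type on sufficient iron. SWN and VRN2 were lowest in that library in 3 of 4 groups each, for which no share over all genes was counted, so nothing is read from it. Of 18628 tested genes with counts in all libraries, 15.03% were lowest there in all 4 groups and 14.1% highest, so REF6 shared this pattern with many genes, and what sets these libraries apart was not tested.

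**Figure D3:**
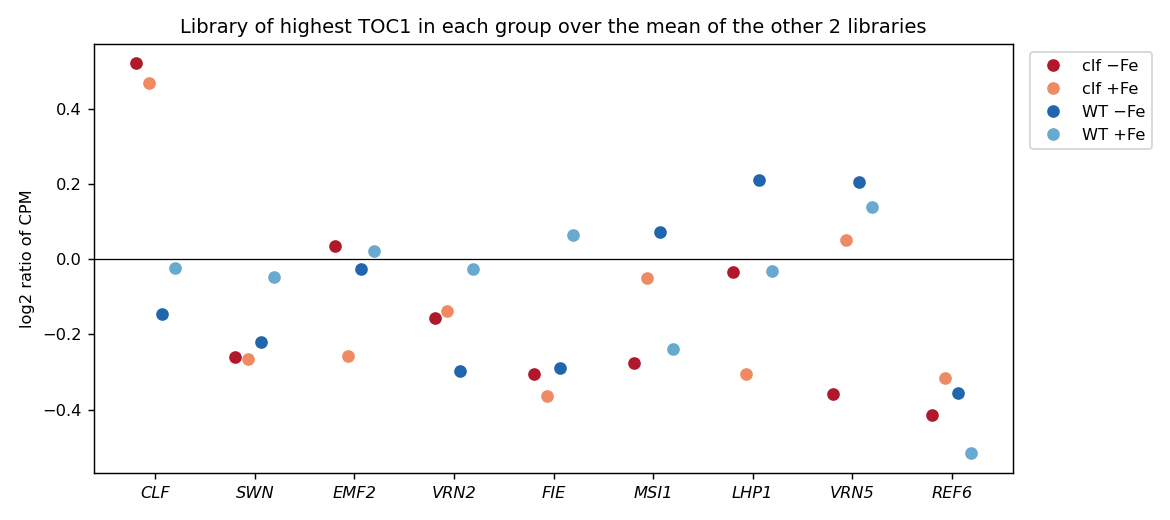
Log2 ratio of CPM (vertical axis) between the library highest in TOC1 and the mean of the other 2 libraries of its group, for 9 members (MEA left out for its wild-type zeros), with 1 point for each of the 4 groups. The 4 REF6 points, at ratios of 0.699 to 0.804, all lie below 0 on this log2 axis.

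Counted over the list, 2 of 10 members passed the test at adjusted p under 0.05 in each clf comparison, CLF lower and MEA higher. Of all 19148 tested genes, 6.47% passed for clf on deficient iron, 4.91% on sufficient iron and 12.7% for the mean clf effect. One of these 2 members is the mutated gene itself, which the choice of genotype fixes, and the other passed the filter only through clf, so nothing is read from the count against the background. The values of clf and wild type did not overlap for 2 of 10 members on deficient iron (background 25.0% of tested genes), for 4 of 10 on sufficient iron (CLF, MEA, VRN2 and FIE, background 23.8%) and for 2 of 10 over both iron levels (background 5.71%). The median log2 fold change of the mean clf effect was -0.04 over the 10 members and -0.02 over all tested genes. For the 8 members other than CLF and MEA the mean clf effect lay between -0.17 and 0.17, and their 95% intervals reached from -0.49 (FIE) to 0.38 (VRN2) on the log2 scale. For this effect averaged over both iron levels, levels under 0.711 times or over 1.298 times those of wild type fall outside the intervals of all 8. On sufficient iron alone the intervals were wider, reaching -0.71 for FIE and 0.63 for VRN2 on the log2 scale.

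**Figure D4:**
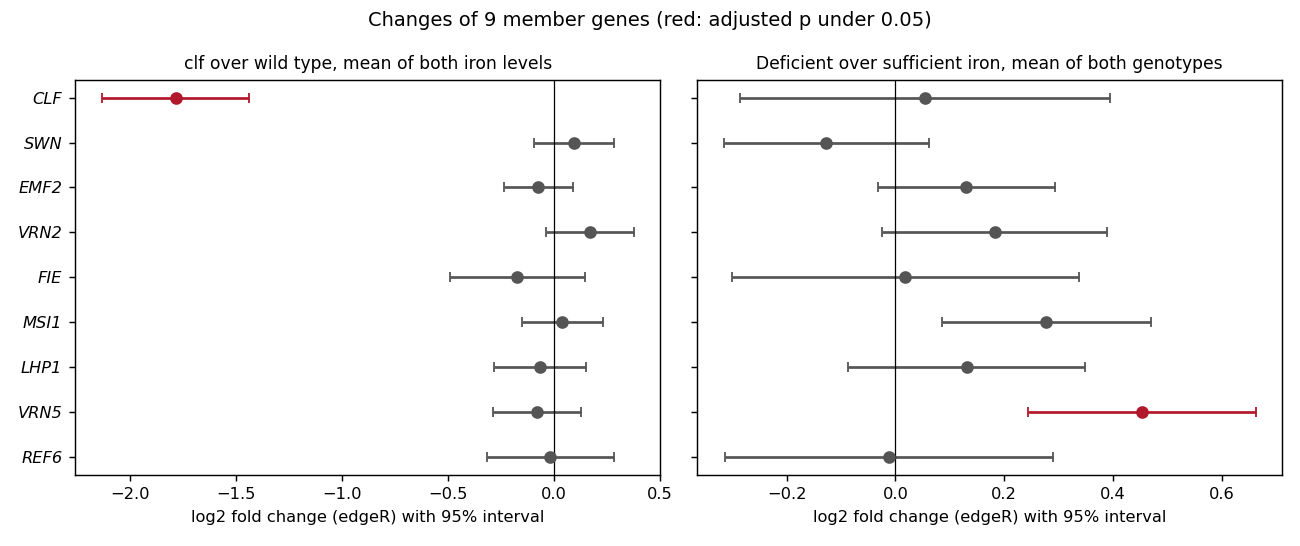
Log2 fold change with its 95% interval (horizontal axis) of 9 members, MEA left out for its few wild-type counts, for the mean clf effect (left) and the mean iron effect (right), from the edgeR fit of TMM-scaled counts, red where the adjusted p is under 0.05. CLF at -1.79 is red on the left and VRN5 at 0.45 on the right.

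VRN5, the PHD finger partner of PRC2 in vernalization, was the member that rose on deficient iron. VRN5 was at 26.8, 28.7 and 21.6 CPM in clf on deficient iron, against 20.8, 17.0 and 19.6 CPM in clf on sufficient iron. In wild type VRN5 was at 27.7, 30.4 and 25.1 CPM on deficient iron, against 18.0, 20.4 and 21.1 CPM on sufficient iron. All 6 deficient libraries lay above all 6 sufficient ones, the closest being 21.6 CPM in clf and 21.1 CPM in wild type. The mean iron effect was a log2 fold change of 0.45 (SE 0.09, 95% interval 0.24 to 0.66, edgeR adjusted p = 0.011), or 1.37-fold. It was 0.51 (adjusted p = 0.0039) without the 4 libraries that stand apart by their clock genes.

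Within each genotype the VRN5 call was less firm. In clf its iron effect, 0.42 (SE 0.13), had an edgeR adjusted p of 0.16 and did not pass. In wild type it was 0.48 (SE 0.13, adjusted p = 0.049), close to the threshold, and it passed in 6 of the 21 alternatives, among them 1 of the 12 that leave a library out. The difference between the 2 iron effects was -0.06 (95% interval -0.48 to 0.36, adjusted p = 0.99), so the iron effect on VRN5 was not shown to differ between genotypes. The mean clf effect on VRN5 was -0.08 (95% interval -0.29 to 0.13, adjusted p = 0.63). The deficient libraries were also the deeper ones and had less of the leaf markers, by the summed levels above, and the part of either in the VRN5 result was not tested.

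Over the list, 1 of 10 members, VRN5, passed in wild type and 1, again VRN5, in the mean iron effect, against 9.12% and 13.6% of all tested genes. For the iron effect in clf 0 of 10 passed in edgeR or in DESeq2, against 1.52% of all tested genes in edgeR. At an unadjusted p under 0.05 there were 2 of 10 members, against 2835 of 19148 tested genes. Deficient and sufficient values did not overlap for 3 of 10 members in wild type (EMF2, VRN2 and VRN5, background 28.3%), for 2 of 10 in clf (MSI1 and VRN5, background 20.9%) and for 1 of 10 over both genotypes (VRN5, background 5.42%). With VRN5 included, the calls and the counts without overlap within a genotype stay close to the background shares. The median log2 fold change of the mean iron effect was 0.13 over the members and -0.01 over all tested genes. MEA aside, the other 8 members had mean iron effects between -0.13 and 0.28, with 95% intervals from -0.32 (SWN) to 0.47 (MSI1).

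Several iron results differed between edgeR on TMM-scaled counts and limma on FPKM, which change the test and the scaling together. On FPKM, where libraries are scaled by their totals, the median gene moved by 0.19 on the log2 scale for the mean iron effect, and 4123 genes passed as higher and 579 as lower, against 1340 higher and 1268 lower after TMM scaling. With edgeR and RLE in place of TMM scaling the mean iron effect gave 1303 higher and 1267 lower, and 1 member, VRN5. For the iron effect in wild type the split was 2556 higher and 453 lower on FPKM, against 882 and 865 after TMM scaling. In limma on FPKM 5 members passed for the mean iron effect, EMF2, VRN2, MSI1, LHP1 and VRN5. VRN5 moved by 0.65 there, above the shift of the median gene.

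No member's iron response was shown to differ between genotypes. For the interaction (the iron effect in clf minus that in wild type) 0 of 10 members passed in edgeR or DESeq2, against 0.00522% of all tested genes in edgeR. At an unadjusted p under 0.05 there were 0 of 10 members, against 1416 of 19148 tested genes. Leaving out MEA, which had too few wild-type counts for such a difference, the estimates lay between -0.33 and 0.22 on the log2 scale. Their 95% intervals reached from -0.82 (CLF) to 0.81 (FIE), while that of EMF2, the narrowest, ran from -0.34 to 0.31.

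The genes whose TMM log2 CPM followed the called members most closely over the 12 libraries are given as a description, the libraries being shared. For MEA and CLF the correlation includes the genotype difference, so genes that differ between clf and wild type rank high. That of VRN5 includes the iron difference in the same way, so genes that differ between deficient and sufficient iron rank high. Whether the genes are regulated together was not tested. For MEA these were STK, a MADS box gene of the ovule, with a Pearson correlation of 0.98, and AT3G19550 and AT5G22430, each also at 0.98. For CLF they were AAO2, an aldehyde oxidase gene, AT5G45470 and AT3G05730, at 0.97 each. For VRN5 they were AT5G53070 at 0.96, HSP81-2, a gene of cytosolic HSP90, at 0.95 and J2, a DnaJ co-chaperone gene, at 0.95.

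Other genes of the pathway were counted from fixed lists. Of 9 further PRC2 and VEL family genes 5 were tested, and none passed in a clf comparison in edgeR or DESeq2. In edgeR 1 had an unadjusted p under 0.05 on deficient iron, 2 on sufficient iron and 2 for the mean clf effect. Of all 19148 tested genes 3773, 3587 and 5175 did so in these comparisons. Of these 5, VEL1, a relative of VRN5, fell on deficient iron, with a mean iron effect of -0.29 (SE 0.07, edgeR adjusted p = 0.015), opposite in sign to VRN5. VEL1 was the 1 of these 5 called for the mean iron effect, where 13.6% of all tested genes were. FIS2, the VEFS subunit of the MEA complex, had 0 counts over the clf libraries and 6 over the wild-type libraries. VIN3, the cold-induced partner of VRN5, had 6 counts in clf and 4 in wild type.

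Of 14 tested genes of Polycomb repressive complex 1 and partner proteins none passed in a clf comparison in edgeR or DESeq2, and none had an unadjusted p under 0.05 there in edgeR. Of all 19148 tested genes 3773 had one on deficient iron, 3587 on sufficient iron and 5175 for the mean clf effect. RING1A, a RING finger subunit gene, fell on deficient iron (mean iron effect -0.53, SE 0.15, edgeR adjusted p = 0.043). It was the 1 of these 14 called for the mean iron effect, where 13.6% of all tested genes were. Of 17 tested antagonists, among them the demethylase gene ELF6 and the trithorax genes ATX1 to ATX5, 0 passed in any of the 7 comparisons in edgeR. Over all tested genes the share called in edgeR ran from 0.00522% for the interaction to 13.6% for the mean iron effect. Of the 17 antagonists, at most 5 had an unadjusted p under 0.05, for the mean iron effect, where 5489 of 19148 tested genes did. DESeq2 called 1 of the 17 for the mean iron effect, and 1795 of all tested genes higher and 1702 lower. For the mean clf effect it also called 1 of the 17, and 1836 of all tested genes higher and 1452 lower.

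Known targets of PRC2 were measured as the readout of the pathway. Of 22 listed targets 14 were tested, and 11 rose and 1 fell in the mean clf effect, against 12.7% of all tested genes passing in either direction. This list was made from loci known to be silenced by CLF, so its direction is not independent evidence. AG, FT, AP3 and SHP2 had 27, 10, 3 and 3 counts over the wild-type libraries, SHP1 had 11 and SEP1 had 43. At least these genes passed the filter on low counts only through clf, so the count of risen targets and the median are partly set by the filter. The median log2 fold change was 2.71 over the 14, against -0.02 over all tested genes. SEP3, a floral MADS gene, averaged 98.4 CPM in clf and 0.973 CPM in wild type on deficient iron. AG, the floral C function gene, averaged 40.2 CPM in clf and 0.246 CPM in wild type on deficient iron. FT, the mobile flowering signal, averaged 11.8 CPM in clf and 0.0894 CPM in wild type on deficient iron, and SHP2, a carpel MADS gene, averaged 4.51 CPM in clf and 0.0115 CPM in wild type. MAF5, a relative of the flowering repressor FLC, fell in clf (log2 fold change -0.62, SE 0.11). For the 3 iron comparisons and the interaction 0 of the 14 passed in edgeR or DESeq2, and 0 had an unadjusted p under 0.05. Such a p for iron was found in 4636 of 19148 tested genes in wild type, 2835 in clf and 5489 with both genotypes averaged. For the interaction it was found in 1416. The shares called in edgeR were 9.12%, 1.52% and 13.6% in that order, and 0.00522% for the interaction. Whether 0 of 14 falls below these shares was not tested.

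Markers of dividing cells were counted beside these results. The summed level of 15 such genes was 144 to 220 CPM in clf on deficient iron and 143 to 200 CPM in clf on sufficient iron, against 167 to 272 CPM in wild type on deficient iron and 185 to 278 CPM in wild type on sufficient iron, with 0 of 15 at 0 counts in any library. The ranges overlapped, and their part in the member results was not tested.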

How the data were processed

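RNA-seq counts of 12 libraries (4 groups of 3, grouped by titles and growth labels) were used. The deposited counts are raw whole numbers, as their values show; reads were aligned with TopHat2 to TAIR10, per the submitters' processing notes. No source used here gives the counting tool, annotation version or strand setting. The authors' FPKM values were proportional to count over library total within a relative 1e-09 in 12911 of 12911 genes tried. They served to compare genes with each other, to give group levels of some members and the methyltransferase pool, and for limma. The edgeR and DESeq2 fold changes rest on the counts.

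Of 32678 identifiers, 19148 passed filterByExpr in edgeR 4.0.16 (R 4.3.3; minimum count 10, total 15). TMM-scaled counts were fitted with glmQLFit on all groups and tested with glmQLFTest, with Benjamini-Hochberg adjustment over all tested genes at 0.05. SE and 95% intervals come from the same fit. Intervals for ratios of counts are exact and, like floors of 3 counts, cover counting error only. The mean clf effect averages both iron levels, and the mean iron effect both genotypes. Alternatives were DESeq2 1.42.0, limma 3.58.1 on log2(FPKM + 0.1) and log2(FPKM + 1), RLE scaling, no filter, only the groups compared, a replicate block, each library left out, and the 4 libraries highest in TOC1 left out or given a term. Scripts were tested on simulated data. Sequences and coordinates are from RefSeq TAIR10.1, in which 31912 identifiers were found. Of the other listed genes, 8 were dropped because the reference gives their locus no such symbol. All members were named in every library, for other lists up to 4 called members with the smallest p, and for called members the 3 most correlated genes; other genes named (untested list members, neighbours) were picked with their values known. The members and lists were chosen with earlier results of these data known. Replicate pairs differed beyond sampling noise (chi-square per gene 5.41 to 104).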

Additional observations from a re-analysis of the deposited data

How the results depend on the processing

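CLF and MEA passed in all clf comparisons under every alternative run, and no member passed for the interaction under any. CLF is the mutated gene and MEA passed the filter on low counts only through clf. Their calls under the alternatives therefore lend no support beyond the counts themselves. For the iron effect in wild type, VRN5 alone passed in edgeR, and the count of members was 0 under RLE scaling, without the filter, with only the groups compared and with the replicate block. It was 3 under limma on FPKM with either pseudocount (VRN2, MSI1 and VRN5) and 0 to 1 with a library left out, VRN5 losing its call in 11 of 12 fits (adjusted p up to 0.14). For the iron effect in clf the count was 0, and 1 (VRN5) under limma on log2(FPKM + 1) and without the 4 libraries highest in TOC1. For the mean iron effect it was 1, but 2 (MSI1 and VRN5) under DESeq2 and with a term for those libraries, 5 under limma on FPKM with either pseudocount, and 1 to 2 with a library left out (2 without replicate 1 of iron-sufficient wild type or replicate 3 of iron-deficient clf). Of 1439 values of single members under an alternative, 1406 kept their call or lack of one, 18 gained a call and 15 lost one. The signs of some uncalled effects near 0, such as those of REF6, turned under limma on FPKM and also with a library left out. With a library left out the mean clf effect on REF6 ran from -0.09 to 0.06. The cause was not tested. Replicate numbers are shared only as numbers: same-numbered libraries correlated at -0.63 to 0.64, over 0.1 in 12 of 18 pairs, and under the replicate block the adjusted p of VRN5 in wild type was 0.067. Low counts limit the precision of the MEA ratios, with 4 counts over 6 wild-type libraries.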
